A study of Mus musculus with 4 samples.

Results

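The RNase P and RNase MRP RNAs are represented by 5 genes, Rmrp, Rpph1, Rprl1, Rprl2 and Rprl3, of 20792 gene names in 2 deposited tables. They were taken by name, and all 5 are listed in both tables. RNA was sequenced from C57BL/6 mouse embryonic stem cells at passages 25 to 30, kept feeder-free on gelatin with LIF and serum. The 4 libraries were mutant IP, mock IP, mutant input and mock input, with 1 library in each group. Mutant cells carried a transfected mutant Dis3l2 with a FLAG tag, and mock cells were mock transfected. IP libraries held RNA recovered with anti-FLAG M2 beads, whereas input libraries held RNA without immunoprecipitation that had been depleted of ribosomal RNA. The labels name neither the mutation nor the promoter of the construct, and do not say whether the cells were 1 clone.

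RNase P is the ribonucleoprotein enzyme that cuts the 5′ leader from precursor tRNAs, and RNase MRP is a related enzyme that takes part in ribosomal RNA maturation. The RNA of RNase P is the catalytic subunit, and both enzymes share most of their protein subunits. Both RNAs are short, structured and made by RNA polymerase III. Dis3l2 is a cytoplasmic 3′ to 5′ exoribonuclease that prefers RNA with an oligouridine tail, and an immunoprecipitation of a mutant form asks which RNAs are held by the protein. Rmrp is the gene of the RNase MRP RNA and Rpph1 that of the RNase P RNA. Rprl1, Rprl2 and Rprl3 are RNase P RNA-like genes, and the RefSeq annotation of assembly GRCm38 gives them the same class as Rpph1. In that annotation Rmrp is 275 bases long and lies on chromosome 4, Rpph1 is 325 bases long on chromosome 14, Rprl1 and Rprl2 are each 238 bases long on chromosomes 6 and 3, and Rprl3 is 235 bases long on chromosome 8.

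Depth differed between tables and libraries. The mRNA table held 2275647 and 1860030 reads in the mutant and mock IPs and 307324 and 291175 in the mutant and mock inputs, while the noncoding table held 2157604 to 3183346 reads per library. One feature took 33.3% to 58.6% of each library of the mRNA table. The embryonic stem cell label was checked against 10 defining markers in the mRNA table, which summed to 4004 reads in the mutant IP, 2732 in the mock IP, 141 in the mutant input and 177 in the mock input. None of the 10 was at 0 in either IP, but Esrrb was at 0 in the mutant input, against 17 reads in the mock input. The endoderm, mesoderm and neuroectoderm markers found summed to 20, 0 and 63 reads in the mutant IP. In the mock IP they summed to 1, 11 and 69. The 3 fibroblast or feeder markers found summed to 99 and 27 reads in the mutant and mock IPs, and to 16 and 10 in the mutant and mock inputs. Their part in the results was not tested. For Dis3l2, the tagged protein, 127 reads were counted in the mutant IP, against 21 in the mock IP. The mutant and mock inputs held 7 and 3. Reads below are whole reads recovered from the deposited values, ratios are between deposited values, and the brackets give exact 95% intervals. These cover counting error between libraries only, since no group has a replicate and reads copied in PCR are not independent molecules. No p-value can be given.

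All RNase P and RNase MRP RNAs of the mRNA table were higher in the mutant IP than in the mock IP. Rmrp had 6811 reads in the mutant IP, 325 in the mock IP, 2284 in the mutant input and 2575 in the mock input. Rpph1 had 3890 reads in the mutant IP, 474 in the mock IP, 4177 in the mutant input and 4470 in the mock input. The mock IP was thus the low library for both RNAs, and the mutant IP was the highest library for Rmrp but not for Rpph1. Rprl3 had 903 and 44 reads in the mutant and mock IPs, against 542 and 535 in the mutant and mock inputs. Rprl2 had 779 and 86 reads in the mutant and mock IPs, against 820 and 814 in the inputs, and Rprl1 had 285 and 59 against 480 and 435. The mock IP was the lowest library for these 3 genes as well, while the mutant IP was above both inputs for Rprl3 only, in reads. Summed over the 5 genes, the mRNA table held 12668 reads in the mutant IP, 988 in the mock IP, 8303 in the mutant input and 8829 in the mock input.

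**Figure D1:**
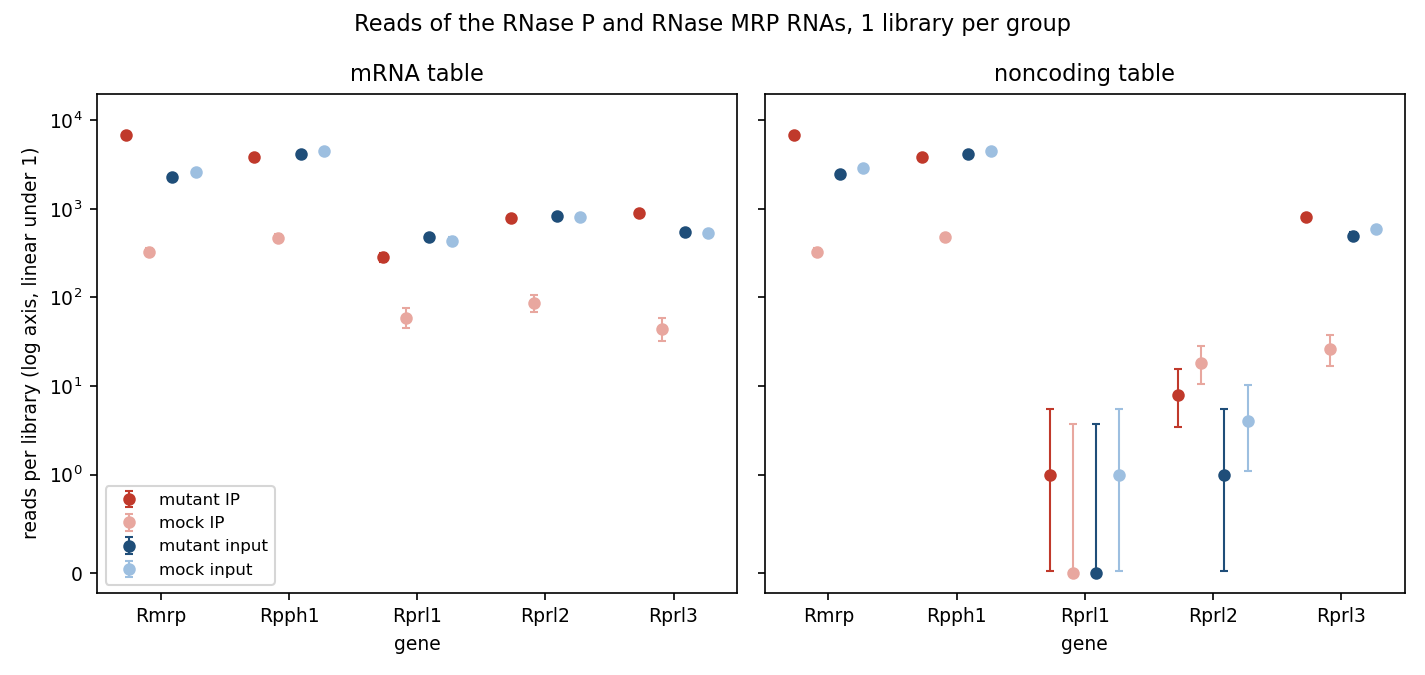
Reads of each gene (x axis) in the mutant IP, mock IP, mutant input and mock input, in the mRNA table (left) and the noncoding table (right), on a log axis that is linear under 1; points are single libraries and bars are exact Poisson 95% intervals. The mock IP is the lowest library for every gene in the mRNA table, from 44 reads for Rprl3 to 474 for Rpph1, and Rprl1 and Rprl2 are at or near 0 in the noncoding table.

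The mutant IP was set against the mock IP to ask which RNAs depended on the tagged protein. Rmrp was 19.4-fold higher in the mutant IP (17.4 to 21.8), and Rprl3 was 19.0-fold higher (14.0 to 26.3). Rprl2 and Rpph1 were 8.39-fold (6.71 to 10.6) and 7.60-fold higher (6.91 to 8.38), and Rprl1 was 4.47-fold higher (3.37 to 6.03). On the log2(value + 1) scale, which understates the change of low features, the 5 values ran from 2.11 to 4.27 with a median of 3.03, against a median of 0.38 over 14272 features. All 5 passed 4-fold, where 10.1% of all features passed it upward and 5.74% downward. Among the 4472 features with at least 100 reads over both IPs, 1.54% passed it. Within these, Rmrp ranked 5th, Rprl3 6th, Rprl2 11th, Rpph1 12th and Rprl1 54th. The call of Rprl1 was lost with a pseudocount of 5, at a log2 ratio of 1.95, and with each of the 4 other scalings, down to 1.70, and its counting interval reaches below 4-fold.

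In the noncoding table Rmrp, Rpph1 and Rprl3 were again higher in the mutant IP, with Rprl3 here above Rmrp. Rmrp was 19.5-fold higher in the mutant IP than in the mock IP, with 6838 and 325 reads, and Rpph1 was 7.43-fold higher, with 3812 and 475 reads. Rprl3 was 29.0-fold higher (19.7 to 44.7), with 815 and 26 reads. Of the 4 members with a value of at least 1, these 3 passed 4-fold, where 13.5% of 3506 features passed it upward and 5.99% downward. Among the 922 features with at least 100 reads over both IPs, of which 12.4% passed 4-fold upward, Rprl3 ranked 17th, Rmrp 21st and Rpph1 53rd. Each of these ratios stayed above 4-fold under every pseudocount, scaling and filter tried, with lowest log2 values of 4.20 for Rprl3, 3.70 for Rmrp and 2.31 for Rpph1.

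**Figure D2:**
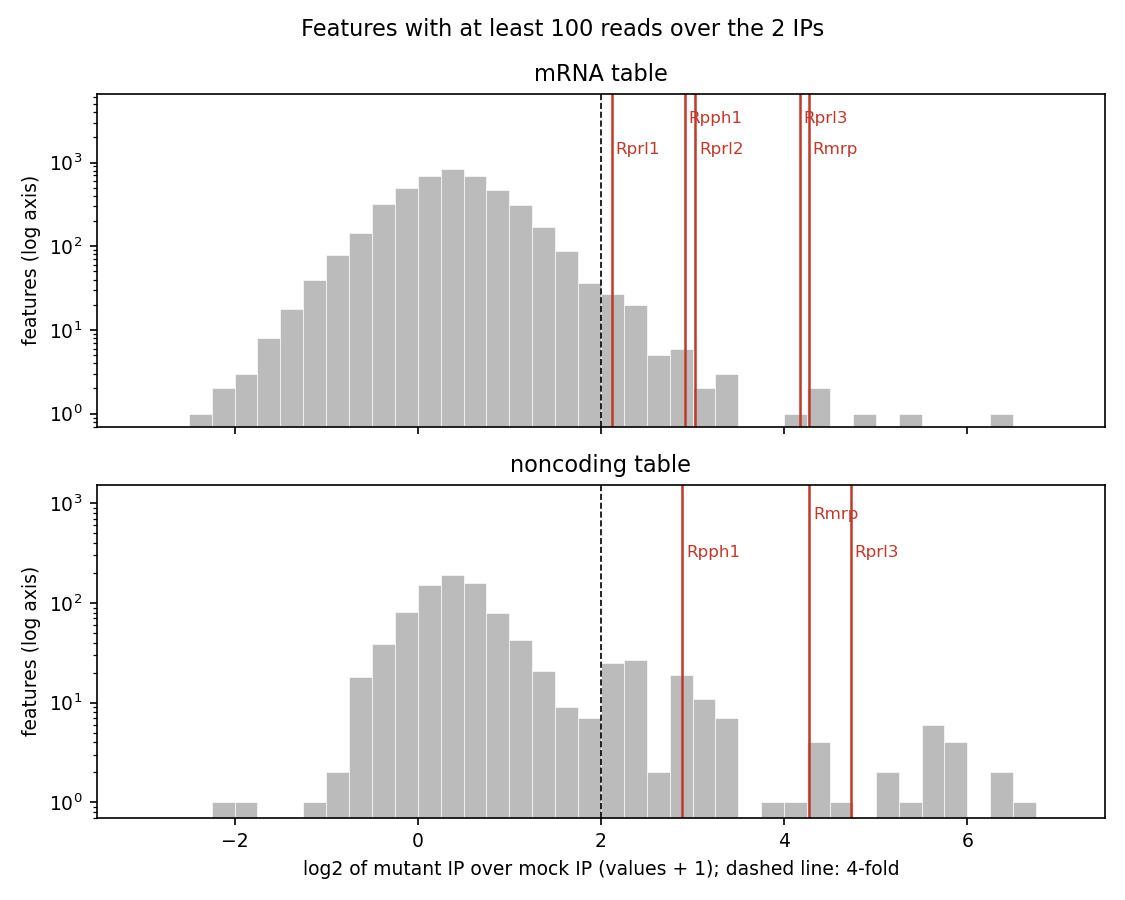
Number of features (y axis, log scale) by log2 ratio of mutant IP over mock IP on values plus 1 (x axis), for features with at least 100 reads over both IPs, in the mRNA table (above) and the noncoding table (below); red lines mark the RNase P and RNase MRP RNAs and the dashed line marks 4-fold. In the mRNA table Rmrp at 4.27 and Rprl3 at 4.17 lie far to the right of the bulk of features, and Rprl1 at 2.11 lies next to the dashed line.

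The RNAs differed from each other in how far they were raised in the mutant IP over the mock IP. The Rpph1 ratio was 0.392 times the Rmrp ratio (0.337 to 0.455) in the mRNA table and 0.381 times it (0.328 to 0.443) in the noncoding table, so the RNase MRP RNA was the more raised of the pair in both. The Rprl3 ratio was 2.50 times the Rpph1 ratio (1.82 to 3.52) but 0.979 times the Rmrp ratio (0.707 to 1.38) in the mRNA table. It was 1.49 times the Rmrp ratio in the noncoding table (0.991 to 2.33). The Rprl2 ratio was 1.10 times the Rpph1 ratio (0.864 to 1.42) in the mRNA table. Rprl1 was lower than Rpph1, at 0.589 times its ratio (0.436 to 0.806). An interval that spans 1 does not show that a pair behaves alike. Scaling of the libraries cancels in these ratios of ratios.

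Each RNA was also counted relative to Rpph1 in its own library of the mRNA table. Between the IPs this is the same quantity as the ratios of ratios above, shown by library and with the inputs beside it. Rmrp had 175% as many reads as Rpph1 in the mutant IP, against 68.6% in the mock IP, 54.7% in the mutant input and 57.6% in the mock input. Rprl3 had 23.2% in the mutant IP, against 9.28%, 13.0% and 12.0% in the mock IP, mutant input and mock input. The mutant IP was thus the library with the highest share for both, and its interval did not overlap those of the other 3 libraries. Rprl2 had 20.03% of the Rpph1 reads in the mutant IP (18.5 to 21.6), 18.1% in the mock IP (14.2 to 22.9), 19.6% in the mutant input (18.2 to 21.2) and 18.2% in the mock input (16.9 to 19.6). These 4 shares overlap in their intervals. Rprl1 went the other way, with 7.33% in the mutant IP (6.47 to 8.26), against 12.4%, 11.5% and 9.73% in the mock IP, mutant input and mock input, and the mutant IP interval lay below the others. Rprl genes resemble the RNase P RNA, so reads could be shared between copies, and how the counting treated such reads is not stated in the labels.

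**Figure D3:**
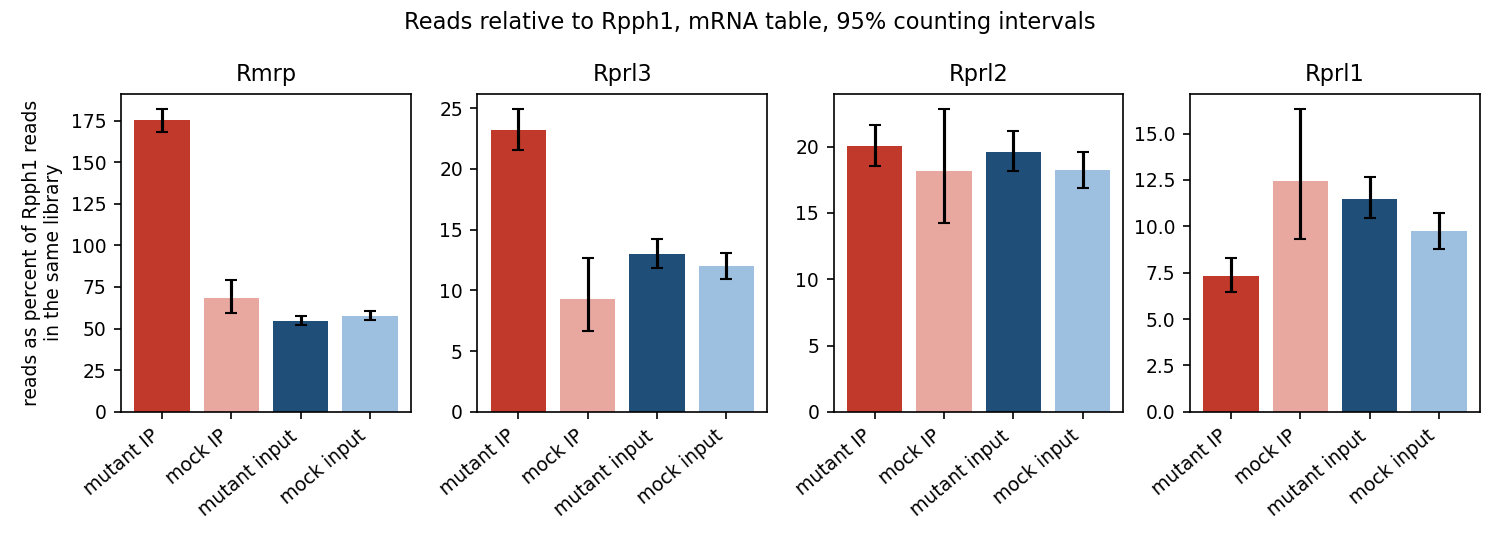
Reads of Rmrp, Rprl3, Rprl2 and Rprl1 as a percent of the Rpph1 reads in the same library (y axes from 0), for the mutant IP, mock IP, mutant input and mock input of the mRNA table; error bars are exact 95% counting intervals. Rmrp reaches 175% and Rprl3 23.2% in the mutant IP, above the other libraries, Rprl2 stays between 18.1% and 20.03%, and Rprl1 is lowest in the mutant IP at 7.33%.

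Levels per length changed order between the libraries. As deposited values per 100 bases in the mRNA table, Rmrp was at 917 in the mutant IP and Rpph1 at 443, a ratio of 2.07 (1.99 to 2.15). In the mock IP Rpph1 was the higher, at 58.3 against 47.3 for Rmrp, a ratio of 1.23 (1.07 to 1.43). In the mutant input the Rpph1 level was 714 and the Rmrp level 461, and in the mock input they were 550 and 375, so that Rmrp led only in the mutant IP. Below them the order in the mutant IP was Rprl3 at 142, Rprl2 at 121 and Rprl1 at 44.4. In the mutant input it was Rprl2 at 191, Rprl3 at 128 and Rprl1 at 112. In the mock IP the 2 lowest neighbours, Rprl1 at 9.92 and Rprl3 at 7.49, did not differ beyond counting error. The noncoding table gave the same order of Rmrp and Rpph1 in each library, with 921 and 434 in the mutant IP.

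IP was compared with input within each condition, as a ratio of relative levels that does not measure how much of each RNA the beads retained. In the mock cells, all 5 RNAs of the mRNA table were far below input, at 0.0822 times input for Rprl3 (0.0590 to 0.112), 0.106 for Rpph1 and for Rprl2, 0.126 for Rmrp (0.112 to 0.142) and 0.136 for Rprl1 (0.101 to 0.178). All 5 passed 4-fold downward, where 1.92% of 13110 features did and 60.6% passed it upward. With equal totals these ratios were lower still, with log2 values of -5.64 for Rmrp and -6.11 for Rprl3, against -2.98 and -3.53 as deposited. In the mutant cells no member passed 4-fold in either direction, where 61.1% of 13636 features passed it upward and 2.32% downward. With each of the 4 other scalings, however, 3 or 4 of the 5 members were at least 4-fold below input in the mutant. In those settings 6.21% to 9.21% of all features were. As deposited, Rmrp in the mutant stood at 1.99 times input (1.90 to 2.09) and Rprl3 at 1.11 (0.997 to 1.24). Rprl2 stood at 0.633 (0.573 to 0.699), Rpph1 at 0.621 (0.594 to 0.649) and Rprl1 at 0.396 (0.341 to 0.459). The median log2 ratio over all features was 2.44 in the mutant and 2.32 in the mock, so in both conditions the RNAs lay below the bulk of this table. Inputs were depleted of ribosomal RNA and the IPs are not described as depleted, and the part of this difference in the ratios was not tested.

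In the noncoding table Rmrp was at 1.82 times input in the mutant cells (1.74 to 1.91) and 0.111 times in the mock cells (0.0989 to 0.125). Rprl3 was at 1.09 times input in the mutant (0.977 to 1.22) and 0.0436 times in the mock (0.0283 to 0.0646), and Rpph1 at 0.613 and 0.106 times in the mutant and mock. In the mock 3 members passed 4-fold downward, where 10.7% of 3138 features did and 23.5% passed upward, and none passed it in either direction in the mutant, where 25.7% of 3406 features passed it upward and 10.3% downward. Whether an RNA stood above or below input in the mutant depended on the scaling. Rmrp in the mRNA table had a log2 ratio of 0.99 as deposited and -1.45 with TMM scaling, and Rprl3 turned from 0.15 to -2.28, whereas in the noncoding table Rmrp stayed between 0.85 and 1.75 and Rprl3 between 0.11 and 1.01. Rpph1 in the noncoding table lay between -0.72 and 0.18.

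**Figure D4:**
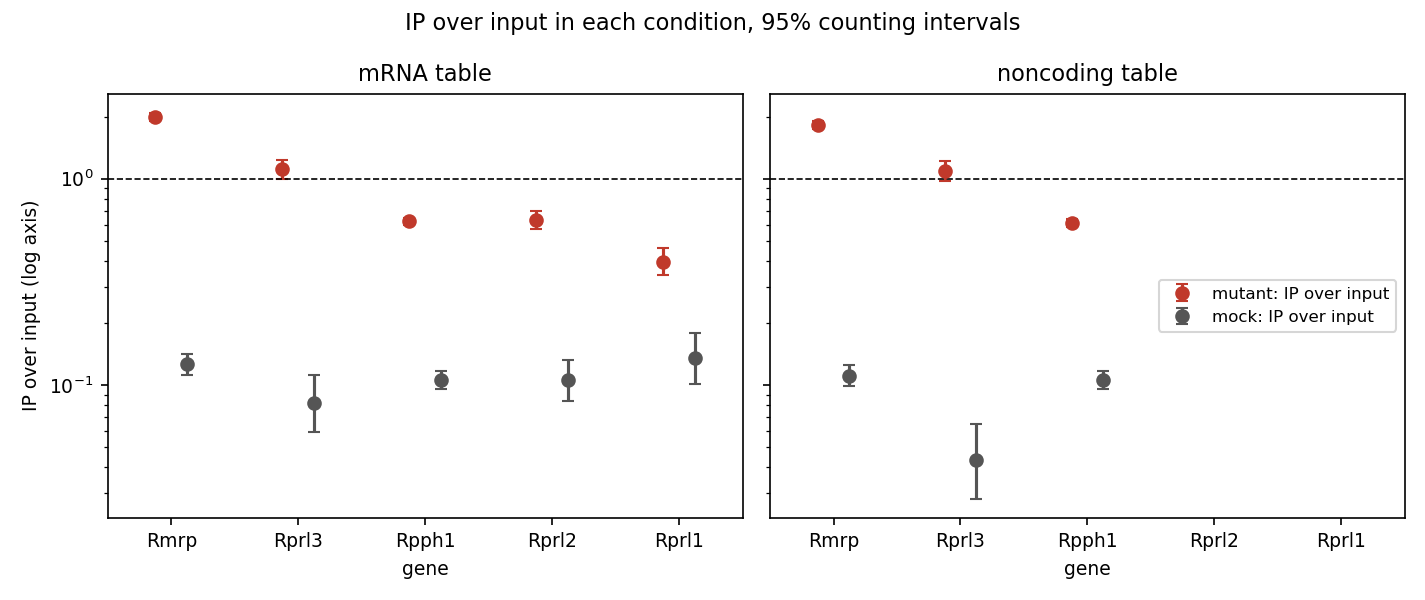
IP over input (y axis, log scale; dashed line at 1) in mutant cells (red) and mock cells (grey) for each gene (x axis), in the mRNA table (left) and the noncoding table (right); points are ratios of single libraries and bars are exact 95% counting intervals, and Rprl1 and Rprl2 are left out of the noncoding panel for lack of reads. Mutant ratios run from 0.396 for Rprl1 to 1.99 for Rmrp in the mRNA table, and every mock ratio shown is below 0.14.

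The specific enrichment divides IP over input in the mutant by IP over input in the mock. It was 15.8 for Rmrp (13.9 to 17.9), 13.5 for Rprl3 (9.71 to 19.1), 5.99 for Rprl2 (4.68 to 7.73), 5.85 for Rpph1 (5.27 to 6.51) and 2.92 for Rprl1 (2.13 to 4.04) in the mRNA table. Of the 5, 4 passed 4-fold upward, where 13.8% of 15059 features passed upward and 10.6% downward, and Rprl1 did not. In the noncoding table it was 25.1 for Rprl3 (16.6 to 39.2), 16.4 for Rmrp (14.5 to 18.6) and 5.78 for Rpph1 (5.20 to 6.43), and these 3 passed 4-fold, where 13.3% of 3968 features passed upward and 8.69% downward. This ratio uses the same 2 IP libraries as the direct comparison, so it is not a separate observation of them.

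The inputs showed small differences. In the mRNA table the mutant input over mock input ratio was 1.53 for Rprl1 (1.34 to 1.75), 1.41 for Rprl3, 1.40 for Rprl2, 1.30 for Rpph1 (1.24 to 1.35) and 1.23 for Rmrp (1.16 to 1.30). None passed 2-fold, which 37% of 9366 features passed upward and 21.7% downward. On the log2 scale the members lay between 0.30 and 0.61 around a median of 0.48, and the median of all features was 0.51. In the noncoding table the ratios of Rmrp, Rpph1 and Rprl3 were 1.19, 1.29 and 1.16, and none of the 4 measured members passed 2-fold, which 29% of 2533 features passed upward and 13.6% downward. The direction of Rmrp and Rpph1 turned with each of the 4 other scalings, as far as -0.28 and -0.21 on the log2 scale in the mRNA table. There Rprl2 and Rprl3 turned with equal totals, with or without the top feature, as far as -0.10 and -0.09. Rprl1 stayed above 0, at 0.03 or more. Fewer cells with an RNA and less of it per cell cannot be told apart in such bulk libraries.

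The 2 tables agreed closely for Rpph1 and less so for the other genes. For Rpph1 the noncoding table held 98.0% of the mRNA table's reads in the mutant IP, 100.2% in the mock IP, 99.2% in the mutant input and 100.1% in the mock input. For Rmrp it held 100.4% in the mutant IP and the same 325 reads in the mock IP, but 109.4% in the mutant input and 113.5% in the mock input, which is 215 and 347 reads more. For Rprl3 it held 90.3%, 59.1%, 91.7% and 111.4% in the mutant IP, mock IP, mutant input and mock input. The mock IP of Rprl3 thus had 26 reads in the noncoding table and 44 in the mRNA table, which is where its ratios of 29.0 and 19.0 part.

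Rprl1 and Rprl2 were nearly absent from the noncoding table. Rprl1 had 1 and 0 reads in the mutant and mock IPs and 0 and 1 in the mutant and mock inputs, so no ratio is given. A count of 0 has an exact 95% interval that reaches 3.69 reads, and a floor of 3 reads is used where a bound is given. Rprl2 had 8 reads in the mutant IP, 18 in the mock IP, 1 in the mutant input and 4 in the mock input. Its ratio of mutant IP over mock IP was 0.412 (0.155 to 0.995), which runs against the 8.39 of the mRNA table. Rpph1 in the noncoding table had 33 fewer reads than in the mRNA table for the mutant input and 5 more for the mock input. Of the other symbols listed in both tables and with at least 20 reads in either, 9.14% to 13.1% per library agreed within 10%, and 1.57% to 3.27% had under 10% of the mRNA table's reads in the noncoding table. The transcripts behind 1 symbol are RefSeq entries in the mRNA table and Ensembl entries in the noncoding table, and whether they describe the same locus for Rprl1 and Rprl2 was not tested.

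**Figure D5:**
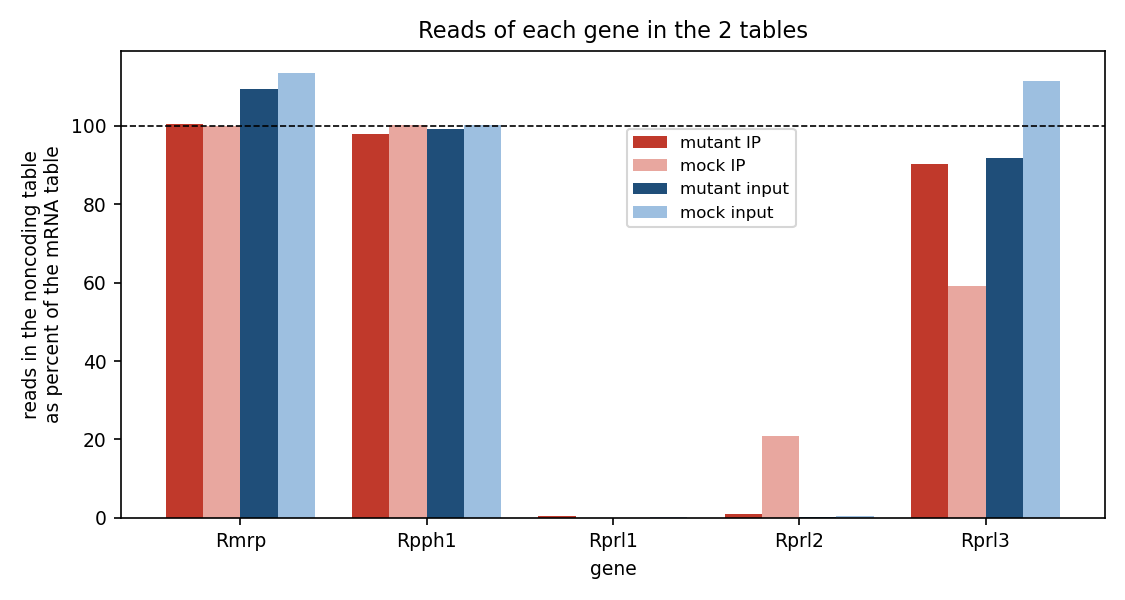
Reads in the noncoding table as a percent of reads in the mRNA table (y axis; dashed line at 100) for each gene (x axis) in the mutant IP, mock IP, mutant input and mock input. Rpph1 stays between 98.0% and 100.2%, Rmrp is above 100% in both inputs, and Rprl1 and Rprl2 are at or near 0 except for 20.9% in the mock IP of Rprl2.

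Leaving out members and near-copies, the 3 features closest in pattern to Rmrp and the 3 closest to Rpph1 all had predicted-gene names. Likeness was the Euclidean distance over the 4 libraries' log2(value + 1) after subtracting each feature's mean, among 864 features of the noncoding table with at least 20 reads in every library. A feature whose reads were within 20% of a nearer one already taken, in every library, counted as its copy and was skipped. The nearest to Rpph1 was Gm24497, at 0.0796, with 1646 reads in the mutant IP, 219 in the mock IP, 1818 in the mutant input and 2028 in the mock input. Next came Gm25939 at 0.330 and Gm23971 at 0.742. The nearest to Rmrp were Gm23849 at 0.634, Gm24950 at 0.770 and Gm26316 at 0.861. In this table all 3 were nearer to Rmrp than Rprl3, at 1.04, and Rpph1, at 1.28. In the mRNA table, where predicted genes were not compared, Rprl3 was at 0.713 from Rmrp and Rpph1 at 1.36. Within the mRNA table the closest pair of members was Rprl2 and Rpph1, at 0.113, and the farthest was Rprl1 and Rmrp, at 1.88.

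Of 10 other noncoding RNAs in the noncoding table, those with reads in both IPs had ratios of mutant IP over mock IP that ran from 1.28 for the nuclear RNA Malat1 to 47.1 for the 7SL RNA, and Rmrp and Rpph1 lay between these. The 7SL RNA Rn7s1, the scaffold of the signal recognition particle, was 47.1-fold higher in the mutant IP than in the mock IP, and the Rmrp ratio was 0.413 times that (0.363 to 0.472). The U1 snRNA Rnu1a1, which recognises 5′ splice sites, was 8.01-fold higher, and the Rpph1 ratio was 0.928 times that (0.833 to 1.04). Against its own input, Rpph1 in the mutant was 4.35 times as high as Rnu1a1 (4.15 to 4.56), and Rmrp was at 1.01 times the Rn7s1 ratio (0.966 to 1.07). In the mock cells Rpph1 was likewise 4.34 times as high as Rnu1a1 against input (3.90 to 4.83). Rmrp there was at 2.17 times the Rn7s1 ratio (1.89 to 2.48). The vault RNA Vaultrc5 was 22.4-fold higher on 242 and 10 reads in the mutant and mock IPs, and the Rmrp ratio, at 0.869 times that, had an interval from 0.408 to 1.65. The Y RNAs Rny1 and Rny3 had 57 and 19 mutant IP reads but 0 mock IP reads, at least 17.6-fold and at least 5.86-fold higher against a floor of 3 reads in the mock IP. The 7SK, telomerase, U11 and U12 RNAs were less raised. The Rpph1 ratio was 5.35 times that of the 7SK RNA Rn7sk (4.68 to 6.12), 3.70 times that of the telomerase RNA Terc (1.15 to 10.5), 2.62 times that of the U11 snRNA Rnu11 (1.69 to 3.97) and 2.96 times that of the U12 snRNA Rnu12 (2.18 to 3.99).

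The messenger RNAs of the protein subunits were mostly within 4-fold between the IPs. Of 11 genes for RNase P and RNase MRP proteins, 9 were found in the mRNA table. On the log2(value + 1) scale used for all calls, 1 of the 9 passed 4-fold upward in the mutant IP over the mock IP and 0 downward, where 10.1% and 5.74% of all features did. Their median log2 ratio was 0.31 against 0.38 for all features. The one that passed was Rpp14, with 12 reads in the mutant IP against 0 in the mock IP, at least 3.70-fold higher against a floor of 3 reads. Pop1, the largest shared protein subunit, had 65 and 115 reads in the mutant and mock IPs, a ratio of 0.523 (0.380 to 0.715), and Rpp40 had 58 and 18, a ratio of 2.98 (1.73 to 5.38). Rpp38, another shared subunit, had 18 and 3 reads and a ratio of 5.56 with an interval from 1.62 to 29.4, but its log2(value + 1) ratio of 1.80 did not pass 4-fold. Pop5 had 14 and 10 reads. These genes had 52 and 24 reads in all in the mutant and mock inputs, so their input levels could not be compared at this depth.

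Of 11 other enzymes of tRNA maturation measured, 1 passed 4-fold upward in the mutant IP over the mock IP and 0 downward, near the shares of 10.1% and 5.74% over all features. Their median log2 ratio was -0.10, against 0.38 for all features. The one that passed was Trmt10c, a subunit of the protein-only mitochondrial RNase P, with 30 and 3 reads in the mutant and mock IPs and a ratio of 9.26 (2.88 to 47.4). Its partners Hsd17b10, with 17 and 32 reads, and Prorp, listed under its older name 1110008L16Rik with 33 and 21 reads, had ratios of 0.492 and 1.46. Elac2, which trims the 3′ end of tRNA precursors, had 141 and 54 reads, a ratio of 2.42 (1.75 to 3.37). Ssb, the La protein that binds the uridine tail of polymerase III transcripts, had 36 and 65 reads, a ratio of 0.513. Tsen54 of the tRNA splicing endonuclease had 124 and 75, a ratio of 1.53.

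Among 11 nucleases and uridylating or adenylating factors that act on RNA ends, 2 passed 4-fold upward in the mutant IP over the mock IP and 0 downward, where 10.1% and 5.74% of all features did. Their median log2 ratio was 0.94, against 0.38 for all features. Those that passed were Dis3l2, at 5.60-fold (3.51 to 9.36), and the terminal uridylyltransferase Zcchc11, at 8.45-fold (5.03 to 15.2) with 146 and 16 reads in the mutant and mock IPs. Dis3l2 is also the transfected gene. Its specific enrichment was 1.73 (0.265 to 8.28), on 7 and 3 reads in the mutant and mock inputs. Xrn2, a nuclear 5′ to 3′ exonuclease, was at 3.11-fold (2.21 to 4.47), and the uridylyltransferase Zcchc6 was at 1.02-fold.

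The genes next to Rmrp and Rpph1 held few reads. Parp2, which lies next to Rpph1 in the RefSeq annotation, had 69 reads in the mutant IP, 49 in the mock IP, 9 in the mutant input and 0 in the mock input. Ccdc107, next to Rmrp, had 5 and 18 reads in the mutant and mock IPs and 0 in both inputs. Both were chosen after their values were seen. Neither neighbour had the reads or the ratio between IPs of the RNA gene beside it.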

How the data were processed

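The labels give RNA from transfected mouse embryonic stem cells, with input and anti-FLAG IP libraries. Reads were aligned with Bowtie to mm9, per the submitters' processing notes. Not given in the sources used here are its version, the counting tool, strandedness and how multiply aligned reads were handled. The authors deposited, per table, a signal per transcript in 1 column per library. Every value (100%) came out as a whole read count, to 0.02 reads, over a divisor of 2.7 for the mutant IP, 2.5 for the mock IP, 1.8 for the mutant input and 2.5 for the mock input. What these divisors stand for is not given, and values were not divided by length.

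Members and gene lists were chosen with earlier results of these data known. Log2 ratios used a pseudocount of 1 among features with a value of at least 1 in any library compared, and calls needed 4-fold, or 2-fold between inputs. For symbols with several transcripts the one with the highest mean was used. Ratios carry exact conditional binomial intervals, and ratios of ratios exact conditional odds ratio intervals (scipy 1.17.1). These were tried only on simulated independent Poisson counts, without spread between libraries or reads copied in PCR. With 1 library per group no count test across genes was possible. TMM scaling used edgeR 4.0.16. Named genes were the members, 3 gene lists (examples with the most reads and those past the threshold), the 3 features nearest in pattern to Rmrp and to Rpph1, and set comparison RNAs. Alternatives were pseudocounts of 0.5 and 5, 4 other scalings and a minimum value of 5.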

Additional observations from a re-analysis of the deposited data

Results flagged for a closer look

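Rmrp and Rprl3 stood above input in the mutant IP and below input in the mock IP as deposited, so the mutant and mock libraries moved in opposite directions. The ratio to input in the mutant, over the ratio to input in the mock, was 15.8 for Rmrp and 13.5 for Rprl3 in the mRNA table. In the noncoding table it was 16.4 for Rmrp and 25.1 for Rprl3. The Rprl3 ratio to input in the mutant, 1.11 in the mRNA table, has a counting interval that reaches 0.997. With TMM scaling both RNAs were below input in the mutant in the mRNA table. With 1 library per group the difference was not tested against replicates.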

How the results depend on the processing

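The count of members past the threshold kept its value, or moved by at most 1.5 times, in 154 of 160 combinations of comparison, direction and setting or of table comparison. In the mRNA table, members at least 4-fold below input in the mutant IP numbered 0 as deposited, 4 with equal totals, 3 with ratios centred on the median, 3 with equal totals after leaving out the feature with the most reads and 4 with TMM. In the same order, 2.32%, 8.81%, 9.19%, 6.21% and 9.21% of all features were that far below input. The scalings also lowered the median log2 ratio over all features of that table, from 2.44 to 0.99, 0.82, 1.22 and 0.87. The shift was not the same for every feature, as Rmrp went from 0.99 to -1.31, -0.63, -0.84 and -1.45. In the noncoding table, with equal totals after leaving out the top feature, 1 member, Rprl2, was higher in the mock IP than in its input, against 0 as deposited, and with centred ratios 1, again Rprl2, was lower in the mutant input than in the mock input, against 0. No called ratio of a single member changed its sign. Between the IPs the log2 ratio of Rmrp lay between 3.87 and 4.27 in the mRNA table, that of Rpph1 between 2.52 and 2.92 and that of Rprl1 between 1.70 and 2.14, which took it below 4-fold in 5 of the settings, and the median of all features moved from 0.38 to as low as 0.02 with equal totals after leaving out the top feature. Members had 1 transcript each per table, so averaging transcripts changed no value. No paired analysis was possible because each group has 1 library. No replicate could be left out for the same reason. Few reads limit Rprl1 and Rprl2 in the noncoding table, which is the deeper one, and depth limits the protein subunit genes in the inputs of the mRNA table.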
